A study of Mus musculus with 3 samples.

Results

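The replication-dependent histone genes supply the core and linker histones that package newly copied DNA. They were taken as all genes whose symbol begins with Hist1h, Hist2h, Hist3h or Hist4h, which gave 67 members among the 32285 genes listed: 6 of linker histone H1, 18 of H2a, 18 of H2b, 12 of H3 and 13 of H4. In the GRCm38 (mm10) annotation 54 of them lie on chromosome 13, 10 on chromosome 3, 2 on chromosome 11 and 1 on chromosome 6, and all of them are annotated as coding genes. Within the set, membership rests on the symbol and not on a measured level.

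Bone marrow cells were profiled by droplet single-cell RNA sequencing in 3 libraries, 1 for each genotype. The control was Rit1M90I/+ Mx1Cre-, a mouse that is heterozygous for the Rit1 M90I allele but has no Cre and that the title also calls wild type. The Lztr1 knockout was Lztr1fl/fl;Mx1Cre+ and the Rit1-M90I library was Rit1M90I/+;Mx1Cre+. Mice of all genotypes were 8 weeks old when given 3 doses of pIpC at 12 mg/kg, a synthetic RNA whose interferon response drives the Mx1 promoter of the Cre transgene. The marrow was taken 4 weeks later, and live cells without CD3, CD11b, Gr1, B220 or Ter119 on their surface were sorted. RIT1 is a RAS-related GTPase, LZTR1 is the ubiquitin ligase adaptor that marks it for breakdown, and the comparison asks what either change does to marrow progenitors. Only the control lacks Cre, so effects of Cre and of the alleles cannot be told apart. No genotype has a replicate, no test between genotypes was possible, and every interval in parentheses is a 95% interval for counting error alone, which leaves out the spread between mice and between cells.

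Histone genes of this kind are switched on as a cell enters S phase, through the NPAT coactivator at the histone locus, and are shut off when replication ends. Their messages differ from other messages in that they normally end in a short stem-loop in place of a poly(A) tail. The stem-loop binding protein SLBP holds that hairpin through processing, translation and decay. Replacement histones, which are made outside S phase too, mostly come from ordinary polyadenylated messages. The 3′ kit used here starts its copies on runs of A, so a level below is the level of tags the kit could prime, and levels of different members are not levels of their messages per length. Near-identical members can also exchange reads, and no source used here states whether counting used strand.

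The stem-loop is shown first because it is the feature that sets these messages apart. The pattern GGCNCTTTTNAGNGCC, read on the message strand of the longest coding transcript of each gene, occurred in 41 of 67 members and in 3 of 21799 other coding genes (0.0138%). Not every member without a match is known to lack the stem-loop. The annotated transcripts of Hist1h2ak (393 bases) and Hist2h2bb (381 bases), among others, stop at the end of the coding part. The capitals in the next lines mark the stem-loop, with up to 5 bases on each side. A member is given for each of the 5 letter versions found.
Hist1h2ap: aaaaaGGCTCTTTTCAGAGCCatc
Hist1h4d: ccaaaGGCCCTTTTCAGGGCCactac
Hist1h3c: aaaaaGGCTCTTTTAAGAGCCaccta
Hist1h4i: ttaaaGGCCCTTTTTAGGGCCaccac
Hist2h2ac: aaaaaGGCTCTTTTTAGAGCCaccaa
The version of Hist1h2ap was shared by 25 members of types H1, H2a, H2b and H3. That of Hist1h4d was found in 7 members, all of them H4 genes, and that of Hist1h4i in 2, both H4 genes. The version of Hist1h3c was found in 6 members and that of Hist2h2ac in 1.

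The 3′ ends of 2 H2a members that recur below are given next, and the capitals here mark their longest run of A. Whether the kit primed at these runs was not tested.
Hist1h2ap: gaaaagAAAAAAAAAAAAggctct
Hist1h2ac: taggagAAAAAAAAAAAAAAAgttcta
In Hist1h2ap the run of 12 A stands directly before the stem-loop, and the annotated transcript of 482 bases ends 3 bases after it. In Hist1h2ac the run of 15 A lies in a transcript of 2482 bases that goes on for 2010 bases past the stem-loop. Runs of 12 A or more occurred in 3 of 67 members, the third being Hist1h2ao. They occurred in 8.53% of other coding genes and in 1.28% of those with a transcript of 300 to 1000 bases. The median transcript length of the members was 539 bases. The coding part of Hist1h2ao is identical to that of Hist1h2ap, so reads of this pair can be exchanged. Among members, 65 pairs had coding parts of equal length and at least 98% identity, with Hist1h2ac and Hist1h2ap at 98.7%, so the split of coding reads among such members is uncertain. Hist1h2ao had 0.241 CPM over the 3 libraries pooled.

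Promoters are shown for the most abundant member, for an H2a member whose levels followed another order across cells, and for the most abundant linker histone gene. They are RefSeq windows of the GRCm38.p6 build, from 250 bases before to 50 bases after the start, and 62 of 67 members matched one. The capitals mark 3 motifs on either strand: the TATA box (TATAAA), the CCAAT box (CCAAT) and the H1 heptamer (AAACACA). The first window is Hist1h2ap (chr13:21833426-21833725, minus strand), the second is Hist1h2ac (chr13:23683910-23684209, minus strand) and the third is Hist1h1b (chr13:21780576-21780875, minus strand).
Hist1h2ap: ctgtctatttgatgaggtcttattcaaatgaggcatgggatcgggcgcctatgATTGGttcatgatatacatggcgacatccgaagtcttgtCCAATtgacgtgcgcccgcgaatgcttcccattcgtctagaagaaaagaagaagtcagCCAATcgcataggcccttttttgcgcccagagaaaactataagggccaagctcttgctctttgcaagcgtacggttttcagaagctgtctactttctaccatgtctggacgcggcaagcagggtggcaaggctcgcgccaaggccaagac
Hist1h2ac: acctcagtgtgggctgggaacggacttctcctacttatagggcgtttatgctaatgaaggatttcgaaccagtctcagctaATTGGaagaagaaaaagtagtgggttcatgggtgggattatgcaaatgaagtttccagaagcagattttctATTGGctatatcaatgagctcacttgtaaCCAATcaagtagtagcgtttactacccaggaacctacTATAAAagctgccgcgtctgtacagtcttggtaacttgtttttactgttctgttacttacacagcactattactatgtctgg
Hist1h1b: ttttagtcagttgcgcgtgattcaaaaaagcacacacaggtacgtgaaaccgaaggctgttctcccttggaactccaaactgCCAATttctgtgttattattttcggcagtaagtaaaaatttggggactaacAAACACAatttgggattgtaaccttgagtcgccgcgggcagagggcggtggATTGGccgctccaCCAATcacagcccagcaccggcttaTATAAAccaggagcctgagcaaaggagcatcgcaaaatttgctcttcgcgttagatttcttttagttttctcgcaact
CCAAT was present in 53 of 62 member promoters (85.5%) and in 37.3% of the 32788 other windows of that length. TATAAA was present in 35 of 62 (56.5%) against 13.5%, and AAACACA in 9 of 62 (14.5%) against 7.17%. Of these 9 windows 5 belonged to the 6 H1 genes, whose known promoter element this heptamer is. By type, CCAAT stood in 6 of 6 H1, 18 of 18 H2a, 16 of 16 H2b and 10 of 10 H3 windows and in 3 of 12 H4 windows. A match describes the letters and is not evidence of a bound factor.

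The deposited tables held 8476, 3014 and 11573 barcodes and 67541728, 30398349 and 88560148 UMIs in the order control, Lztr1 knockout, Rit1-M90I, an order kept throughout. After the cell filter and doublet removal 7273, 2338 and 9367 cells were kept, with a median of 6861, 9922 and 6590 UMIs. Libraries shared 2, 9 and 6 kept barcodes by pair (control with knockout, control with Rit1-M90I, knockout with Rit1-M90I). Lztr1 stood at 17.3 CPM (16.2 to 18.3), 6.34 CPM (5.43 to 7.35) and 15.2 CPM (14.3 to 16.1), lowest in the library labelled Lztr1 knockout, although tags outside the deleted part would not check the deletion. Cells were assigned to populations by marker gates, ranges of a score from 148 markers of 18 cell types, and a name below means a range of cells like that type. At least 50 cells in every library were found for 9 populations, and 18.4% of kept cells lay within 0.1 of a gate's score or margin.

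Histone tags came mostly from a few members. Of 650533 histone UMIs in the kept cells, Hist1h2ap held 53.4%, the 4 most abundant members held 77.4% and the 10 most abundant held 86.0%. A UMI was found for 65 of 67 members, and the 2 without one were Hist2h2aa2, whose coding part is identical to that of Hist2h2aa1, and Hist1h2ba. At least 20 CPM (UMIs per 1000000 UMIs of the cells in question) over the pooled libraries was reached by 18 members. Of the other 49, 20 lay between 5 and 19.4 CPM, 18 between 1 and 5 CPM and 11 under 1 CPM.

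Among H2a genes, whose product pairs with H2b at the outside of the nucleosome, Hist1h2ap stood at 2233 CPM (2221 to 2245) in control cells, 2201 CPM (2183 to 2218) in knockout cells, 1846 CPM (1837 to 1855) in Rit1-M90I cells. Hist1h2ae stood at 445, 508 and 371 CPM. Both were lowest in Rit1-M90I. Hist2h2aa1 stood at 31.6, 49.2 and 42.6 CPM, Hist2h2ac at 25.4, 40.4 and 31.9 CPM and Hist1h2ab at 24.03, 37.2 and 23.1 CPM. Those 3 were highest in the Lztr1 knockout. Hist1h2ac stood at 38.8, 31.1 and 36.7 CPM and was the H2a member of this size that was lowest there.

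Linker histones bind the DNA that enters and leaves the nucleosome. Hist1h1b stood at 339.8, 434 and 387 CPM, Hist1h1e at 118, 136 and 123 CPM and Hist1h1a at 48.9, 63.3 and 54.5 CPM. Hist1h1d stood at 47.97, 55.4 and 50.9 CPM. Each of these 4 was highest in the Lztr1 knockout and lowest in the control. Hist1h1c stood at 45.2, 43.2 and 45.2 CPM and was lowest in the knockout. The testis linker histone gene Hist1h1t had 0.0648 CPM pooled.

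The H3 and H4 pair forms the centre of the nucleosome. Hist1h3c, the 1 H3 member of at least 20 CPM, stood at 58.6, 85.2 and 48.9 CPM. Of the H4 genes, Hist1h4h stood at 47.2, 70.9 and 60.05 CPM, Hist1h4i at 49.2, 61.7 and 56.5 CPM and Hist1h4d at 43.3, 73.8 and 55.1 CPM. All 3 H4 genes had the order knockout, Rit1-M90I, control from high to low. Among H2b genes Hist1h2bc stood at 55.2, 49.8 and 50.4 CPM, Hist1h2br at 20.2, 26.6 and 25.2 CPM and Hist1h2bb at 21.1, 28.2 and 21.8 CPM. The upper arm of the counting interval was at most 7.51% of the level for these 18 members.

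**Figure D1:**
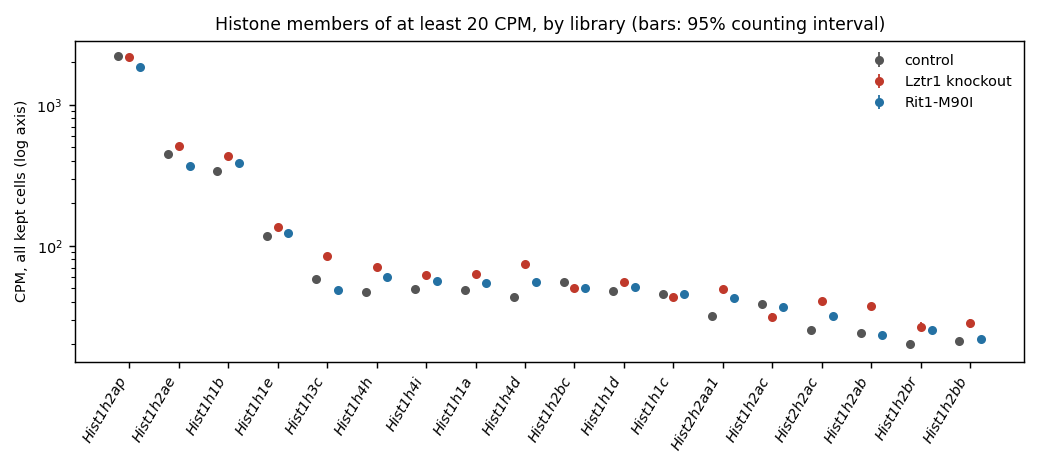
CPM over all kept cells (vertical log axis) of the 18 histone members with at least 20 CPM, ordered by pooled level, with 1 point per library and bars for 95% counting intervals. Hist1h2ap lies at 1846 to 2233 CPM, above every other member, and the 3 H4 genes Hist1h4h, Hist1h4i and Hist1h4d are highest in the Lztr1 knockout.

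Cells were next grouped by the summed level of 40 S phase genes and 42 G2 and M phase genes, lists that hold no histone gene. Low cycle cells were below the median of both sums, and the high groups were at or above the 75th percentile of 1 or both sums, taken over all kept cells. Summed over the 67 members, low cycle cells had 889.7, 837 and 858 CPM and cells high for the S list alone 2999, 2902 and 3148 CPM. Cells high for both lists had 9431, 8995 and 8366 CPM, and those high for the G2M list alone 6774, 6468 and 6121 CPM. In every library the sum was lowest in low cycle cells and highest in cells high for both. Cells high for the S list, with or without the G2M list, had 6.42 (6.30 to 6.54), 6.75 (6.53 to 6.98) and 6.01 (5.90 to 6.11) times the low cycle level.

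Most members had higher levels in cycling cells. Of 39 members with a mean of at least 5 CPM over the groups compared, 31 in the control were at least 1.5-fold higher (17.2% of all genes were) and 1 at least 1.5-fold lower (16.5%) in cells high for both lists than in low cycle cells. The counts were 33 (16.8%) and 2 (17.6%) of 39 in the Lztr1 knockout and 32 (17.6%) and 1 (15.4%) of 39 in Rit1-M90I. The filter takes in the cycling cells, so a gene can pass it through its level there alone, which holds for the shares of all genes too. Hist1h3i, with 4.62 CPM pooled, was among the members called higher in every library. These calls use CPM plus 10, and on that log2 scale the members' median was 1.01, 1.15 and 1.16 against -0.02, -0.04 and -0.01 over all genes. Hist1h2ap had 269, 215 and 227 CPM in low cycle cells and 5621, 4700 and 4494 CPM in high S and G2M cells, ratios of 20.9, 21.9 and 19.8. Hist1h1b, the linker histone known for its tie to proliferation, had 34.5, 42.9 and 41.1 CPM in low cycle cells and 982, 1049 and 1073 CPM in high S and G2M cells, ratios of 28.4, 24.4 and 26.1. For both, the gap between the groups was far wider than the counting error in every library.

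Hist1h3c had 2.94, 4.45 and 3.700 CPM in low cycle cells and 136, 185 and 116 CPM in high S and G2M cells. Hist1h2ab had 1.73, 2.09 and 2.02 CPM in low cycle cells and 58.5, 84.6 and 59.5 CPM in high S and G2M cells. Both had under 5 CPM in low cycle cells of every library. Hist1h2ap made up 30.2%, 25.6% and 26.4% of histone UMIs in low cycle cells and 59.6%, 52.3% and 53.7% in cells high for both lists.

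The H4 genes had smaller ratios than these members. Hist1h4h had ratios of 3.800, 4.62 and 4.701, Hist1h4i of 3.92, 5.67 and 4.93 and Hist1h4d of 4.83, 6.45 and 5.07. Linker histones were spread widely, with Hist1h1b (above) highest. Hist1h1a had ratios of 15.6, 10.4 and 14.6, Hist1h1e of 3.39, 3.41 and 3.58, Hist1h1d of 2.25, 2.54 and 2.43 and Hist1h1c of 0.934, 1.103 and 1.03. The order Hist1h1b, Hist1h1a, Hist1h1e, Hist1h1d, Hist1h1c was the same in every library.

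The members Hist1h2ac, Hist1h2bc and Hist3h2a were higher in low cycle cells in all 3 libraries, and no other member of at least 5 CPM was. Hist1h2ac had 55.97, 49.7 and 58.7 CPM in low cycle cells and 22.8, 27.3 and 22.3 CPM in high S and G2M cells, ratios of 0.408, 0.548 and 0.3802. Hist1h2bc, its neighbour on chromosome 13, starts at 23684199 on the plus strand, where Hist1h2ac starts at 23683948 on the minus strand. It had 58.9, 50.2 and 51.7 CPM in low cycle cells and 37.8, 41.7 and 40.4 CPM in high S and G2M cells, ratios of 0.641, 0.831 and 0.782. Hist3h2a, on chromosome 11, had ratios of 0.454, 0.325 and 0.512 and had 14.1 CPM in low cycle cells of the control. These 3 were named after their values were seen.

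**Figure D2:**
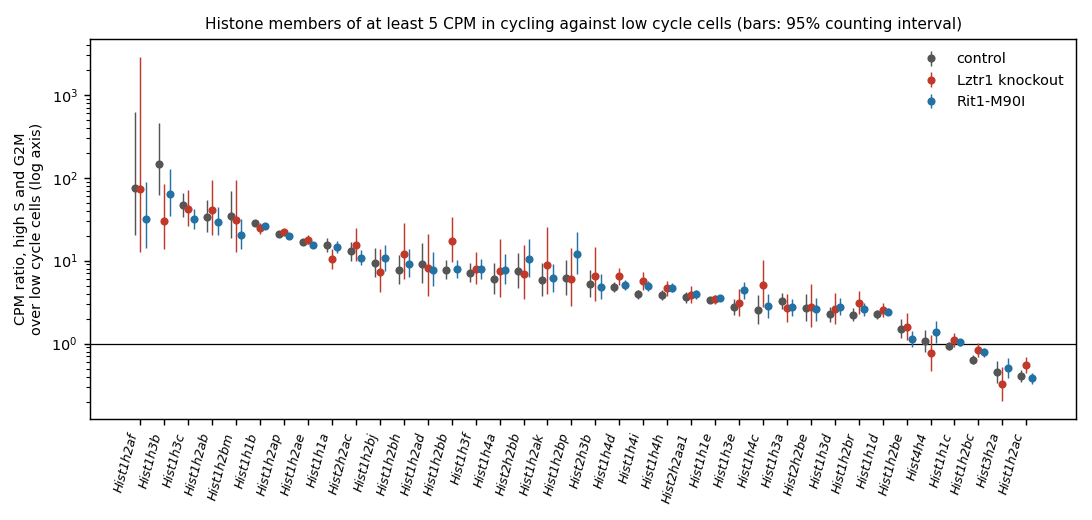
Ratio of CPM in cells high for both the S and the G2M list to CPM in low cycle cells (vertical log axis) for the 38 members with at least 5 CPM pooled, with 1 point per library and bars for 95% counting intervals. The line marks a ratio of 1. Hist1h2ac, Hist3h2a and Hist1h2bc lie below it in every library, and Hist1h2ap lies at 19.8 to 21.9.

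The annotated 3′ end ran with this order in part. Among the 38 members of at least 5 CPM, the 12 whose longest transcript ends within 100 bases of the stem-loop had median ratios of 11.1, 16.3 and 10.7, and the lowest was 3.25, 2.67 and 2.72. The 15 whose transcript goes on for 100 bases or more had medians of 2.57, 3.07 and 2.84, and the 11 with no match to the pattern 5.95, 6.85 and 7.81. Ratios under 2 were found in 5 of the 15 in every library, and they were the same 5, Hist1h1c, Hist1h2ac, Hist1h2be, Hist3h2a and Hist4h4, with 840 to 2445 bases past the stem-loop. The other member under 2 was Hist1h2bc, which had no match. The 5 named before it were also all among the 15 members highest in basophil and mast cell-like cells, a population of mostly low cycle cells described below. Others of those 15 had larger ratios, such as Hist1h2ad with 9.09, 8.10 and 7.74. The part of cell type in the ratios over all cells was not tested. A transcript that goes on past the stem-loop did not always go with a small ratio. Hist1h2bh has 1214 bases past it and ratios of 7.76, 12.1 and 9.23. Hist1h2ae has 151 bases past it and ratios of 16.6, 17.9 and 15.6, above the median of the 12 in every library. Among the 11 with no match, the annotated transcripts of Hist1h2ak and Hist2h2bb stop at the end of the coding part. This is a description of annotated transcripts, and which 3′ ends the cells used was not measured here.

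Genes that act on histone messages and proteins, none of them in the cycle lists, were read in the same cells. Of 17 measured genes that transcribe or process histone messages, 10, 12 and 12 were at least 1.5-fold higher in cells high for both lists and 0 lower, against the shares of all genes above. Ccne1, cyclin E1, which with CDK2 activates NPAT, went, from low cycle cells to cells high for both lists, from 4.14 to 103 CPM in the control (ratio 24.8, 18.9 to 33.2), and Ccne2 from 3.92 to 53.5 CPM in the control (ratio 13.7, 10.2 to 18.6). The lowest were Lsm10, from 30.4 to 24.6 CPM in the control (ratio 0.812, 0.685 to 0.9601), and Cpsf3, from 35.4 to 36.7 CPM in the control (ratio 1.04, 0.898 to 1.198). Slbp itself, the hairpin binder, went from 76.9 to 313 CPM in the control (ratio 4.07, 3.78 to 4.37).

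Histone chaperones, which carry new histones to DNA, were higher in 17 of 18 genes in each library (17.2%, 16.8% and 17.6% of all genes were) and lower in 0. Asf1b went from 4.37 to 68.8 CPM in the control (ratio 15.8, 12.01 to 20.99) and Chaf1a, a subunit of the replication-coupled assembly factor CAF-1, from 14.3 to 87.7 CPM in the control (ratio 6.13, 5.22 to 7.22). The lowest were Nap1l4, from 96.95 to 135 CPM in the control (ratio 1.39, 1.29 to 1.51), and Npm1, from 1363 to 2465 CPM in the control (ratio 1.81, 1.77 to 1.84). Of 10 measured replacement histone genes 4 were higher in every library, against those same shares, Cenpa, H2afv, H2afx and H2afz, and H1f0 passed the fold for lower in Rit1-M90I, with ratios of 0.733, 0.629 and 0.601, under 1 in every library. Cenpa, the centromeric H3, went from 40.1 to 236 CPM in the control (ratio 5.899, 5.36 to 6.501), and H2afx, the H2A form that marks DNA breaks, from 45.9 to 228 CPM in the control (ratio 4.97, 4.53 to 5.45). The lowest were H1f0, from 50.6 to 37.1 CPM in the control (ratio 0.733, 0.6397 to 0.838), and H2afy, the macroH2A gene, from 1112 to 1107 CPM in the control (ratio 0.996, 0.971 to 1.02).

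Across the 9 populations the summed level was highest in erythroblast-like cells, with 8004, 8475 and 7794 CPM, and lowest in T cell-like cells, with 680.4, 534 and 371 CPM. Monocyte lineage-like cells had 5310, 5621 and 4734 CPM, basophil and mast cell-like cells 4694, 4872 and 3717 CPM and erythroid progenitor-like cells 4461, 4004 and 4033 CPM. Plasmacytoid dendritic-like cells had 4553, 4256 and 3251 CPM, lymphoid progenitor-like cells 3526, 3557 and 2411 CPM and neutrophil progenitor-like cells 3146, 3503 and 3241 CPM. Stem and multipotent-like cells had 1969, 2116 and 2265 CPM, below the other populations except the T cell-like cells.

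The share of cycling cells ran with that order in part. Cells high for both cycle lists made up 89.2, 94.1 and 92.7% of erythroblast-like cells, and low cycle cells made up 88.2, 80.4 and 86.2% of T cell-like and 61.7, 43.9 and 60.8% of stem and multipotent-like cells. Basophil and mast cell-like cells stood apart, with 65.6, 58.95 and 59.97% low cycle cells beside a sum above that of the neutrophil progenitor-like cells. Their median depth of 2578, 3232 and 2673 UMIs was below that of the neutrophil progenitor-like cells, 12262, 16714 and 13644. The part of depth in these levels was not tested, nor was that of free RNA, which droplets can pick up.

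**Figure D3:**
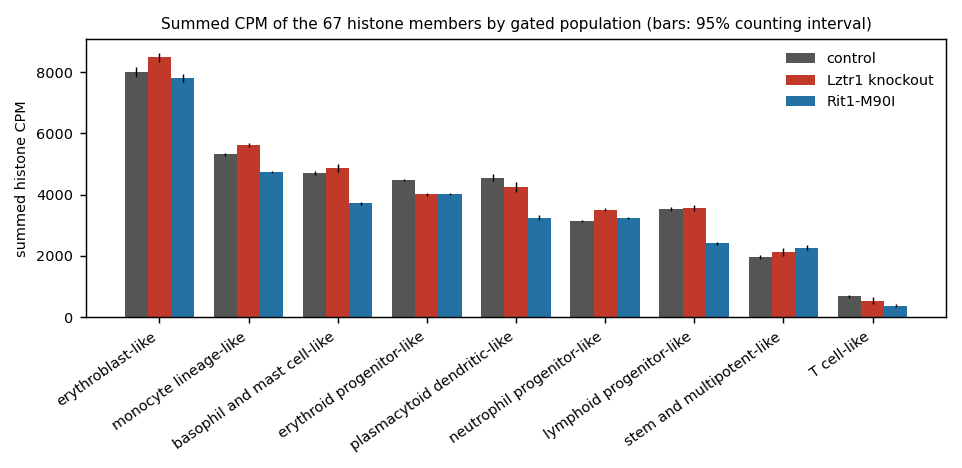
Summed CPM of the 67 histone members (vertical axis) in the 9 populations with at least 50 cells in every library, with 1 bar per library and 95% counting intervals. Erythroblast-like cells lie at 7794 to 8475 CPM and T cell-like cells at 371 to 680.4 CPM.

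By the mean of the libraries, 22 of 38 members were highest in erythroblast-like cells, where 17.5% of all genes had their highest level. The genes compared had a mean of at least 5 CPM over the populations, which a high level in 1 population can reach. A further 15 were highest in basophil and mast cell-like cells (15.9% of all genes) and 1, Hist1h2bc, in stem and multipotent-like cells (12.0%). That last place was nearly tied, since the means of Hist1h2bc were 65.9 CPM there, 65.1 CPM in basophil and mast cell-like and 63.95 CPM in lymphoid progenitor-like cells, and a different population led in each library. Hist1h2ap had 4452, 4184 and 3927 CPM in erythroblast-like, 2198, 2018 and 1416 CPM in basophil and mast cell-like and 291, 168 and 99.9 CPM in T cell-like cells. Hist1h1b had 1089, 1234 and 1179 CPM in erythroblast-like and 114, 136 and 145 CPM in stem and multipotent-like cells. Both genes had the lowest level in T cell-like cells in each library.

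Hist1h2ac followed another order. It had 207, 233 and 217 CPM in basophil and mast cell-like cells, 60.9, 42.99 and 85.5 CPM in stem and multipotent-like cells and 9.86, 10.5 and 3.93 CPM in erythroblast-like cells. The first population was above all others in every library, and the erythroblast-like cells, which led the sum, were among the lowest. Hist1h1c was also highest in basophil and mast cell-like cells, with 156, 158 and 165 CPM, but had 66.3, 53.9 and 63.4 CPM in erythroblast-like cells, more than Hist1h2ac had there. Hist1h1d, with 118, 123 and 107 CPM, and Hist1h2br, with 53.3, 49.95 and 62.4 CPM, were the other members of at least 20 CPM with the highest mean in that population.

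**Figure D4:**
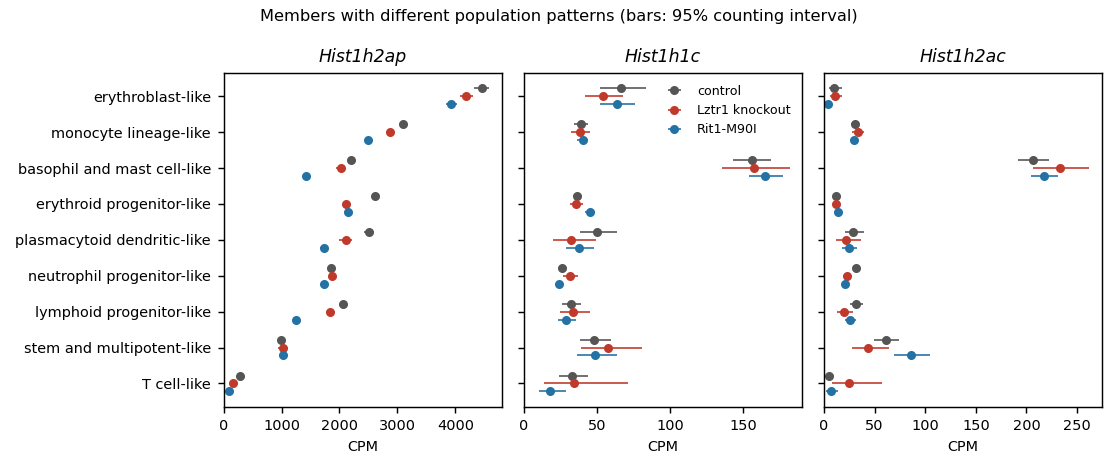
CPM (horizontal axis, from 0) of Hist1h2ap, Hist1h1c and Hist1h2ac in the 9 populations, ordered by summed histone level, with 1 point per library and bars for 95% counting intervals. Hist1h2ap is highest in erythroblast-like and lowest in T cell-like cells, and Hist1h1c and Hist1h2ac are highest in basophil and mast cell-like cells in all 3 libraries.

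Cycling and low cycle cells were then compared inside populations, over the 17 pairs of population and library that had at least 20 cells of each kind. Here a cycling cell was in any of the 3 high groups. The sum and 14 of the 18 members of at least 20 CPM were higher in cycling cells in 17 of 17 pairs, as were 8.93% of all genes of at least 20 CPM. Hist1h1d was higher in 15, Hist1h1c in 9, Hist1h2ac in 8 and Hist1h2bc in 4 of 17, and Hist3h2a in 5 of 17.

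In basophil and mast cell-like cells the sum was 1490, 1459 and 1569 CPM in low cycle and 12003, 12314 and 9333 CPM in cycling cells. The cycling cells of this population thus had more summed histone tags than the erythroblast-like cells as a whole. Hist1h2ac there had 155, 175 and 179 CPM in low cycle and 288, 359 and 293 CPM in cycling cells, ratios of 1.86 (1.58 to 2.19), 2.05 (1.57 to 2.68) and 1.63 (1.42 to 1.88). In erythroid progenitor-like cells it had 33.8, 27.00 and 32.4 CPM in low cycle and 9.84, 10.4 and 11.4 CPM in cycling cells, the opposite order. Low cycle basophil and mast cell-like cells also had more Hist1h2ac than low cycle cells of each other population compared, where it was at most 100.5 CPM.

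Hist1h2bc had 40.9, 24.8 and 45.7 CPM in low cycle and 71.2, 142 and 64.8 CPM in cycling basophil and mast cell-like cells. In lymphoid progenitor-like cells it had 56.9, 87.6 and 59.2 CPM in low cycle and 39.7, 42.8 and 55.03 CPM in cycling cells. The direction over all cells for this gene and for Hist1h2ac was therefore not that of every population.

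Between genotypes, the sum over all kept cells was 3936, 4294 and 3589 CPM. Set against the control, the Lztr1 knockout stood at 1.09 (1.08 to 1.099) and Rit1-M90I at 0.912 (0.907 to 0.917). Without Hist1h2ap the ratios were 1.23 (1.22 to 1.24) and 1.02 (1.015 to 1.03), so the Rit1-M90I ratio changed side. Cells high for both cycle lists made up 9.09%, 14.6% and 9.395% of kept cells. After thinning each cell to 2000 UMIs, which left out 685, 91 and 1315 shallower cells, they made up 10.2%, 14.55% and 9.998%. Within low cycle cells, intermediate cells, cells high for S alone, cells high for both and cells high for G2M alone, the knockout ratio was 0.941 (0.905 to 0.979), 0.808 (0.786 to 0.8303), 0.968 (0.951 to 0.985), 0.954 (0.943 to 0.965) and 0.955 (0.944 to 0.966), each under 1. Without Hist1h2ap the same 5 ratios were 1.004 (0.958 to 1.05), 0.912 (0.879 to 0.946), 1.08 (1.05 to 1.104), 1.13 (1.11 to 1.15) and 1.097 (1.08 to 1.12), so 4 of 5 were above 1 once this gene was left out. For Rit1-M90I the 5 ratios went both ways, at 0.965 (0.941 to 0.9895), 1.04 (1.03 to 1.06), 1.05 (1.03 to 1.06), 0.887 (0.878 to 0.896) and 0.903 (0.896 to 0.911). With all libraries given the same cell-cycle makeup, a comparison chosen after seeing the data, the ratio of the whole sum was 0.942 in the knockout and 0.936 in Rit1-M90I.

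The types differed in their ratios. H4 genes summed to 171, 249.6 and 208 CPM, ratios of 1.46 (1.42 to 1.505) for the knockout and 1.22 (1.19 to 1.246) for Rit1-M90I. They were above 1 in 8 of 9 populations in the knockout and in 7 of 9 in Rit1-M90I, and in each of the 5 cell-cycle groups in both. In low cycle cells the knockout ratio was 1.07 (0.944 to 1.21), an interval that holds 1. H2a genes summed to 2832, 2910 and 2388 CPM, ratios of 1.03 (1.02 to 1.04) and 0.843 (0.838 to 0.849), and were above 1 in 2 of 9 and 1 of 9 populations. Most of this sum was Hist1h2ap, with 2233, 2201 and 1846 CPM, which was above 1 in as many populations. For the other H2a members of at least 20 CPM, knockout ratios ran from 0.802 for Hist1h2ac to 1.59 for Hist2h2ac.

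H1 genes summed to 599.8, 733 and 660.1 CPM, ratios of 1.22 (1.202 to 1.24) and 1.101 (1.09 to 1.11), above 1 in 8 of 9 and 5 of 9 populations. H2b genes summed to 170.3, 200.2 and 186 CPM, ratios of 1.18 (1.14 to 1.21) and 1.09 (1.07 to 1.12), above 1 in 7 of 9 populations in both. H3 genes summed to 163, 201 and 146 CPM, ratios of 1.23 (1.19 to 1.27) and 0.897 (0.874 to 0.921), above 1 in 6 of 9 and 2 of 9. The balance of H4 to H2a tags, with Hist1h2ap as most of the H2a tags, was thus higher in both mutant libraries than in the control, which both comparisons share. In cells high for both cycle lists H4 had 314, 449 and 382 CPM and H2a 7016, 6228 and 5745 CPM, in the same order of libraries as over all cells for H4.

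**Figure D5:**
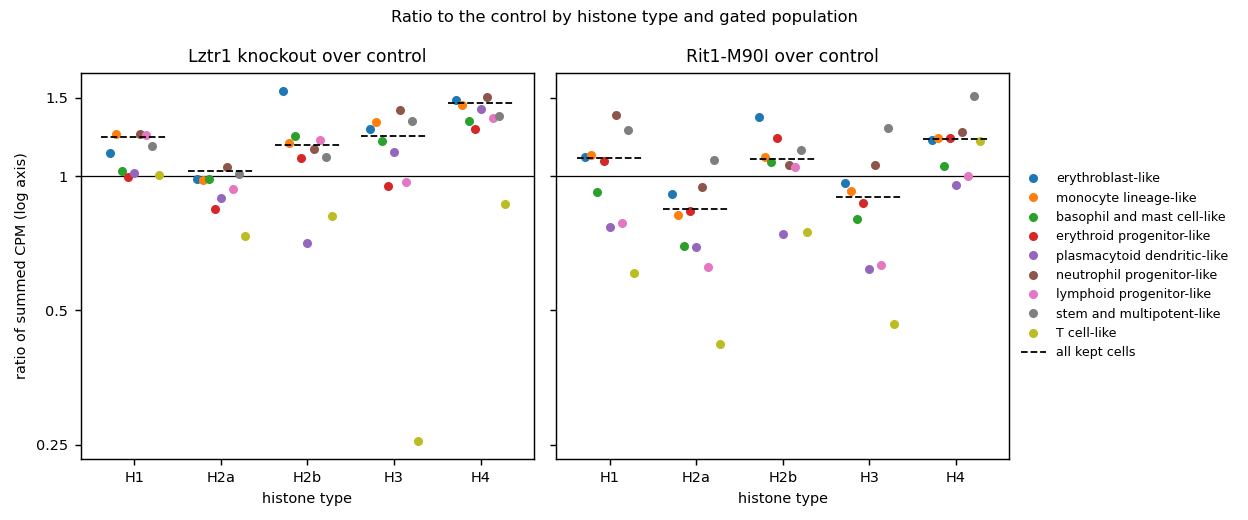
Ratio of summed CPM to the control (vertical log axis) for each histone type in the Lztr1 knockout (left) and Rit1-M90I (right), with 1 point for each of the 9 populations and a dashed line for all kept cells. The lowest point on the left, H3 in T cell-like cells, rests on 2 UMIs, and the H4 points lie above 1 in 8 of 9 populations on the left and in 7 of 9 on the right.

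Of 39 members tested over all kept cells, 1 was at least 1.5-fold higher in the Lztr1 knockout on CPM plus 10 (0.188% of all genes were) and 0 at least 1.5-fold lower (0.387%). The 1 was Hist1h4d, with a ratio of 1.71 (1.61 to 1.81). With a pseudocount of 1 in place of 10, 5 members passed: Hist1h4d, Hist1h2ab, Hist1h2af, Hist2h2aa1 and Hist2h2ac, where 0.502% of all genes did, and 0 were lower (0.837%). On CPM plus 10 the members' median log2 ratio was 0.21, against 0.01 over all genes. Hist1h4d was also the 1 called of 42 members in cells high for both cycle lists (0.241% of all genes higher), and 0 were lower (0.306%).

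In Rit1-M90I 0 of 38 members were called higher (0.230% of all genes) and 0 lower (0.146%), with a median log2 ratio of 0.08 against -0.04 over all genes. With a pseudocount of 1 the counts were also 0 (0.617%) and 0 (0.534%). In cells high for both lists they were 0 (0.327%) and 0 (0.131%) of 41. The ratio of Hist1h4d was 1.27 (1.21 to 1.34) and that of Hist2h2aa1 1.35 (1.27 to 1.43). Those of Hist1h2ap, Hist1h2ae and Hist1h3c were 0.827 (0.821 to 0.833), 0.833 (0.8198 to 0.847) and 0.835 (0.797 to 0.873). The 3 most abundant members with a ratio under 1 in Rit1-M90I thus differed by about as much.

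In the Lztr1 knockout the ratios of Hist2h2ac, Hist2h2aa1, Hist1h2ab, Hist1h4h and Hist1h3c were 1.59 (1.47 to 1.72), 1.55 (1.45 to 1.67), 1.55 (1.43 to 1.68), 1.503 (1.42 to 1.59) and 1.45 (1.38 to 1.53). Hist1h4i and Hist1h2ab were above the control in 9 of 9 populations, of which T cell-like cells rest on 3 and 1 knockout UMIs, and Hist1h4h and Hist1h4d in 8 of 9. Counting intervals held 1 in several of these populations, as for Hist1h4i in monocyte lineage-like cells, at 1.14 (0.968 to 1.33). The 3 members of at least 5 CPM that were higher in low cycle cells were lower in the knockout than in the control over all kept cells. Hist1h2ac stood at 0.802 (0.741 to 0.868), Hist1h2bc at 0.902 (0.847 to 0.9604) and Hist3h2a at 0.829 (0.708 to 0.968). By population, Hist1h2ac and Hist1h2bc were each above the control in 5 of 9. In cells high for both lists their ratios were 1.195 (0.959 to 1.486) and 1.105 (0.929 to 1.313), intervals that hold 1. The larger share of cells high for both lists in this library moved with the values over all kept cells, and its part in them was not tested.

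By population, Hist1h4d had 31.1, 64.05 and 41.9 CPM in neutrophil progenitor-like cells, 53.5, 100.5 and 76.8 CPM in monocyte lineage-like cells and 44.7, 62.3 and 57.1 CPM in erythroid progenitor-like cells. The knockout was highest in each, and T cell-like cells were the population where it was not above the control. No other member had a coding part at least 98% identical to that of Hist1h4d, whereas 37 of 67 members had such a partner.

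For the whole set by population, the knockout ratio ran from 0.785 (0.637 to 0.959) in T cell-like (108 UMIs) and 0.897 (0.886 to 0.9097) in erythroid progenitor-like cells to 1.11 (1.09 to 1.14) in neutrophil progenitor-like cells. That of Rit1-M90I ran from 0.545 (0.481 to 0.617) in T cell-like, 0.684 (0.664 to 0.704) in lymphoid progenitor-like and 0.714 (0.688 to 0.741) in plasmacytoid dendritic-like cells to 1.15 (1.09 to 1.21) in stem and multipotent-like cells. In lymphoid progenitor-like cells the share of cells high for the S list was 26.9, 37.1 and 18.2%, and in plasmacytoid dendritic-like cells it was 48.1, 63.04 and 31.8%, lowest in Rit1-M90I in both. The part of cell-cycle makeup in these ratios was not tested. Several of these ratios change side when cells are grouped in another way, as given in the closing section.

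No gene of the 3 lists around histones, with 17, 18 and 10 genes tested, was called in either genotype, over all kept cells or in cells high for both cycle lists. Of all genes, 0.131 to 0.387% were called in each direction in these comparisons. A count of 0 in lists of this size is near that share and does not set these genes apart. In the Lztr1 knockout the highest ratios were 1.247 (1.14 to 1.36) for Ccne2 and 1.18 (1.097 to 1.26) for Ccne1 among 16 processing genes of at least 20 CPM, and the lowest 0.903 (0.825 to 0.989) for Lsm10 and 0.979 (0.909 to 1.05) for Cpsf3. Among 17 chaperone genes they were 1.22 (1.13 to 1.31) for Asf1b and 1.21 (1.18 to 1.247) for Supt16, against 0.979 (0.929 to 1.03) for Asf1a and 1.011 (1.001 to 1.02) for Npm1. Among 10 replacement histones they were 1.13 (1.09 to 1.17) for H2afx and 1.07 (1.04 to 1.11) for Cenpa, against 0.892 (0.822 to 0.969) for H1fx and 0.937 (0.917 to 0.958) for H2afj. All of these lie within 1.5-fold of the control.

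In Rit1-M90I the processing genes ran from 0.872 (0.828 to 0.918) for Ncbp1 and 0.876 (0.845 to 0.907) for Cpsf2 to 1.0 (0.945 to 1.06) for E2f1 and 1.16 (1.08 to 1.246) for Ccne2. The chaperones ran from 0.847 (0.805 to 0.8898) for Chaf1b and 0.918 (0.897 to 0.941) for Nasp to 1.07 (1.04 to 1.099) for Rbbp4 and 1.102 (1.04 to 1.17) for Asf1b. Replacement histones ran from 0.739 (0.694 to 0.787) for H1fx and 0.933 (0.882 to 0.988) for H1f0 to 1.03 (1.005 to 1.06) for H2afx and 1.03 (1.02 to 1.04) for H2afy. Slbp had ratios of 1.16 (1.12 to 1.195) in the knockout and 0.978 (0.952 to 1.004) in Rit1-M90I.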

How the data were processed

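Per the file headers, the authors' deposited files hold UMI counts per gene and cell from Cell Ranger 6.1.1, and the submitters' processing notes name mm10 and Seurat 4.1.0. Members and lists were chosen with earlier results of these data known, and gate thresholds after seeing the files. Cells needed 1000 UMIs, 500 genes and at most 10% mitochondrial UMIs. Doublets (250, 84 and 450 cells) were removed per library with Scrublet in scanpy 1.11.5. A cell joined the population with the highest mean marker z-score (at least 0.5, 0.25 above the next, 3 markers with a UMI). Summed counts were scaled to CPM with exact Poisson intervals, and ratios have exact conditional intervals (scipy 1.17.1), all at 95%. A call was a 1.5-fold difference on CPM plus 10 among genes with a mean of 5 CPM. Members of at least 20 CPM were named with values, and from each gene list the 2 highest and 2 lowest ratios. Alternatives were other cell filters, doublets kept, other totals, pseudocount, gate margin, Leiden clusters and thinning.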

Additional observations from a re-analysis of the deposited data

Results flagged for a closer look

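In both comparisons the summed histone level was above the control in some populations and below it in others, with counting intervals clear of 1 on each side for the gates and the full set of members used. Each value comes from 1 library against 1 library, so the difference between populations was not tested. In the Lztr1 knockout the ratio was 1.07 (1.005 to 1.15) in stem and multipotent-like cells, 1.06 (1.03 to 1.09) in erythroblast-like cells, 1.04 (1.007 to 1.07) in basophil and mast cell-like cells, 1.11 (1.09 to 1.14) in neutrophil progenitor-like cells, 1.06 (1.04 to 1.08) in monocyte lineage-like cells, 0.897 (0.886 to 0.9097) in erythroid progenitor-like cells, 0.935 (0.893 to 0.978) in plasmacytoid dendritic-like cells and 0.785 (0.637 to 0.959) in T cell-like cells. In Rit1-M90I the ratio was 1.15 (1.09 to 1.21) in stem and multipotent-like cells, 1.03 (1.02 to 1.04) in neutrophil progenitor-like cells, 0.904 (0.894 to 0.914) in erythroid progenitor-like cells, 0.792 (0.775 to 0.809) in basophil and mast cell-like cells, 0.892 (0.8802 to 0.903) in monocyte lineage-like cells, 0.714 (0.688 to 0.741) in plasmacytoid dendritic-like cells, 0.684 (0.664 to 0.704) in lymphoid progenitor-like cells and 0.545 (0.481 to 0.617) in T cell-like cells. Without Hist1h2ap the knockout ratios were 1.02 (0.996 to 1.04) in erythroid progenitor-like, 1.05 (0.983 to 1.12) in plasmacytoid dendritic-like and 0.9404 (0.727 to 1.201) in T cell-like cells, so no knockout population then lay below 1 with an interval clear of it. In Rit1-M90I without that gene, erythroid progenitor-like cells stood at 1.02 (0.9997 to 1.03) and monocyte lineage-like cells at 1.013 (0.994 to 1.03), and the other 4 populations listed as below 1 stayed below it, from 0.696 (0.597 to 0.8097) to 0.922 (0.896 to 0.948). The Rit1-M90I ratio of stem and multipotent-like cells turned to 0.7497 with the stricter gate margin and 0.7867 with Leiden clusters. With Leiden clusters the knockout ratio changed side in basophil and mast cell-like (0.9936), neutrophil progenitor-like (0.9970), plasmacytoid dendritic-like (1.029) and T cell-like (1.063) cells. The share of cells high for the S phase list differed between libraries within populations, and its part in these ratios was not tested.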

How the results depend on the processing

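The summed ratios rest on choices. Without Hist1h2ap, the Lztr1 knockout sum was 1.229 and the Rit1-M90I sum 1.023 times the control, the latter reversed. With the cell-cycle makeup weighted alike, chosen after seeing the data, they were 0.9418, reversed, and 0.9359. The Rit1-M90I sum moved to 0.9223 under a stricter cell filter, and to 0.9190 for totals without mitochondrial, hemoglobin and ribosomal protein genes. A pseudocount of 1 called 5 members higher in the knockout, and 0.502% of all genes.

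The high S over low cycle ratio became 6.264 (control) and 5.838 (Rit1-M90I) over every deposited barcode, and 6.575 and 6.639 with the stricter filter. In library order it was 6.564, 7.023 and 6.311 with scores on thinned cells, 6.570, 7.049 and 6.349 with the reduced totals, and 3.812, 4.358 and 3.861 without Hist1h2ap. Erythroblast-like over T cell-like cells became 16.89 with Leiden clusters, 13.09 with doublets kept and 12.56 over every barcode.

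In plasmacytoid dendritic-like cells the knockout ratio reversed to 1.037 with the stricter filter, and in stem and multipotent-like cells the Rit1-M90I ratio reversed to 0.7497 with the stricter gate margin. With Leiden clusters the latter was 0.7867, and the knockout ratio reversed to 0.9936 in basophil and mast cell-like, 0.9970 in neutrophil progenitor-like, 1.029 in plasmacytoid dendritic-like and 1.063 in T cell-like cells. A population value counted as moved when it left the counting interval of its main value and was not reversed. Of 45 population values, 22 moved over every barcode, 26 with the stricter filter, 10 with doublets kept, 30 with reduced totals, 35 with the stricter margin and 32 with Leiden clusters. Reduced totals divide by fewer UMIs, so all 27 population levels among the values rose, to 1.38 to 1.65 times the main value. The causes of the other changes were not tested. No paired analysis was possible because each genotype has 1 library, and no library could be left out.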
